A study of Drosophila melanogaster with 12 samples.

Results

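The transcription-unit annotation of the series named more than 1 gene in 1139 of its 15848 units on the fly chromosome arms 2L, 2R, 3L, 3R, X and 4. From these, 610 multi-gene units were taken by name and length alone. Their gene names held none that starts with snoRNA:, mir-, tRNA: or snRNA:, and their length lay below 30000 bp. They were 610 of all 15991 units in the file, 4.02% of the 15184 units under that length on the same arms (95% exact binomial interval 3.71 to 4.34%), and they named 1302 genes. Of the other multi-gene units, 305 had a name with one of the 4 starts, and 224 had none but were too long. Only the annotation was analysed here, so the values describe where annotated genes lie and how they share a unit, and not whether they were transcribed. The comparison group was 13997 units with a single gene, on the same arms, under the same length and with the same name starts left out.

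The series made mNET-seq libraries, which sequence the nascent RNA held by immunoprecipitated RNA polymerase II, from S2 cells, a cultured male Drosophila melanogaster line. Its 12 libraries form 6 groups of 2 replicates: total polymerase or polymerase phosphorylated on serine 5 of its tail, each after RNAi of MOF for 4 days, of MSL1 for 2 days, or of the control (titled GST) for 2 days. MSL1 and MOF belong to the complex that raises transcription of the male X chromosome. The durations come from the design text, the MOF groups differ from the control groups in duration as well as in target, and no library value was analysed here.

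As a concept, a transcription unit stands for the stretch that polymerase copies in one passage from a promoter. The units of this annotation need not match it. In 182 of the 414 units that paired protein-coding genes, the gene starts lay over 1000 bp apart. In flies most units hold 1 gene, but some messenger RNAs carry separate reading frames for several proteins, and such dicistronic or polycistronic genes are annotated as different genes on a common transcript. Other genes overlap only at their edges, or lie nested inside an intron of a larger gene on the same strand. In nascent RNA, reads over a stretch shared by genes on 1 strand cannot be given to one of them without further evidence, and an annotation can treat such genes as a single unit.

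Textbook examples of shared loci were looked up by name. Of 12 such loci, 9 lay whole in 1 of the multi-gene units, and 11 contributed at least 1 such unit. The loci were listed because their genes are known to share a transcript or a locus. Their presence was thus largely built in, and the counts are a description. The 12 loci gave 17 units, 12 of which belonged to the 610. In 6 of the 10 that held 2 genes, both genes had exactly the same start and end in the RefSeq gene table of the same assembly. In the following sentences coordinates are those of the dm6 build, 1-based, and a span is the stretch from the start to the end of a gene.

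The stoned locus, whose genes stnA and stnB act in the recycling of synaptic vesicles, formed a unit of 23927 bp with 8 transcripts on the minus strand of X (chrX:22980722-23004648). Both genes spanned all of it. Adh, the gene of alcohol dehydrogenase, and the related Adhr shared a unit of 3351 bp with 8 transcripts on the plus strand (chr2L:14615552-14618902). The whole of that unit was overlapped by a unit on the other strand. Mocs2, whose locus encodes both subunits of molybdopterin synthase, had a unit of 1728 bp with 2 transcripts on the minus strand (chr3R:25125632-25127359). The annotation named its genes Mocs2 and CG42503, which the RefSeq table calls Mocs2B and Mocs2A.

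A pair of same-span units lay back to back on 3R. Ada2a, an adaptor of histone acetyltransferase complexes, shared a unit of 2645 bp and 6 transcripts on the minus strand with Rpb4, a subunit of RNA polymerase II (chr3R:18252843-18255487). The adjacent unit, on the plus strand, held moi, a protein of telomere capping, and Tgs1, the enzyme that trimethylates RNA caps. It spanned 2148 bp with 2 transcripts (chr3R:18255530-18257677). The starts of both units lay 43 bp apart, so 4 genes were annotated outward from one short interval.

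The tal locus, which encodes several very small peptides of leg and embryo development, was given as 4 genes of the same span, 1540 bp, with 4 transcripts (chr3R:13813109-13814648, plus strand). These were tal-1A, tal-2A, tal-3A and tal-AA. In the cholinergic locus, VAChT, the vesicular transporter of acetylcholine, and ChAT, the enzyme that makes it, began at the same base of a unit of 26844 bp with 4 transcripts (chr3R:18705501-18732344, plus strand). ChAT spanned the whole unit and VAChT only its first 13416 bp. A long non-coding RNA gene of 376 bp, CR46265, was a further member of that unit and began 14122 bp from its start.

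Units with a common start and different ends included mei-217 and mei-218, genes of meiotic recombination. Their 7006 bp unit lay on X (chrX:17135985-17142990, minus strand) with 5 transcripts, and mei-217 covered 6413 bp of it. The unit of eIF2gamma, a translation initiation factor subunit, and Su(var)3-9, the histone H3 lysine 9 methyltransferase of heterochromatin, spanned 5615 bp with 4 transcripts (chr3R:15257844-15263458, minus strand). Su(var)3-9 ended after 3595 bp. The janus genes janA and janB overlapped by 107 bp in a unit of 1550 bp with 4 transcripts (chr3R:30037984-30039533, minus strand). The remaining gene listed for that locus, ocn, had a unit of its own 253 bp away.

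The cluster of 6 sweet taste receptor genes Gr64a to Gr64f was divided into 4 neighbouring units on the plus strand of 3L, separated by 4, 29 and 95 bp. Gr64b and Gr64c shared 1 unit with the same span (3428 bp, 3 transcripts, chr3L:4028605-4032032). Gr64d and Gr64e shared another with a common end, in which Gr64e began 79 bp later (3642 bp, 4 transcripts, chr3L:4032062-4035703). Gr64a and Gr64f stood alone. The genes CheB42a and llz (ppk25 in the annotation), which serve pheromone sensing, also had separate units, 100 bp apart on 2R, and were the only locus of the 12 with no multi-gene unit. Genes of these loci could thus lie within 100 bp on 1 strand and still have separate units.

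**Figure D1:**
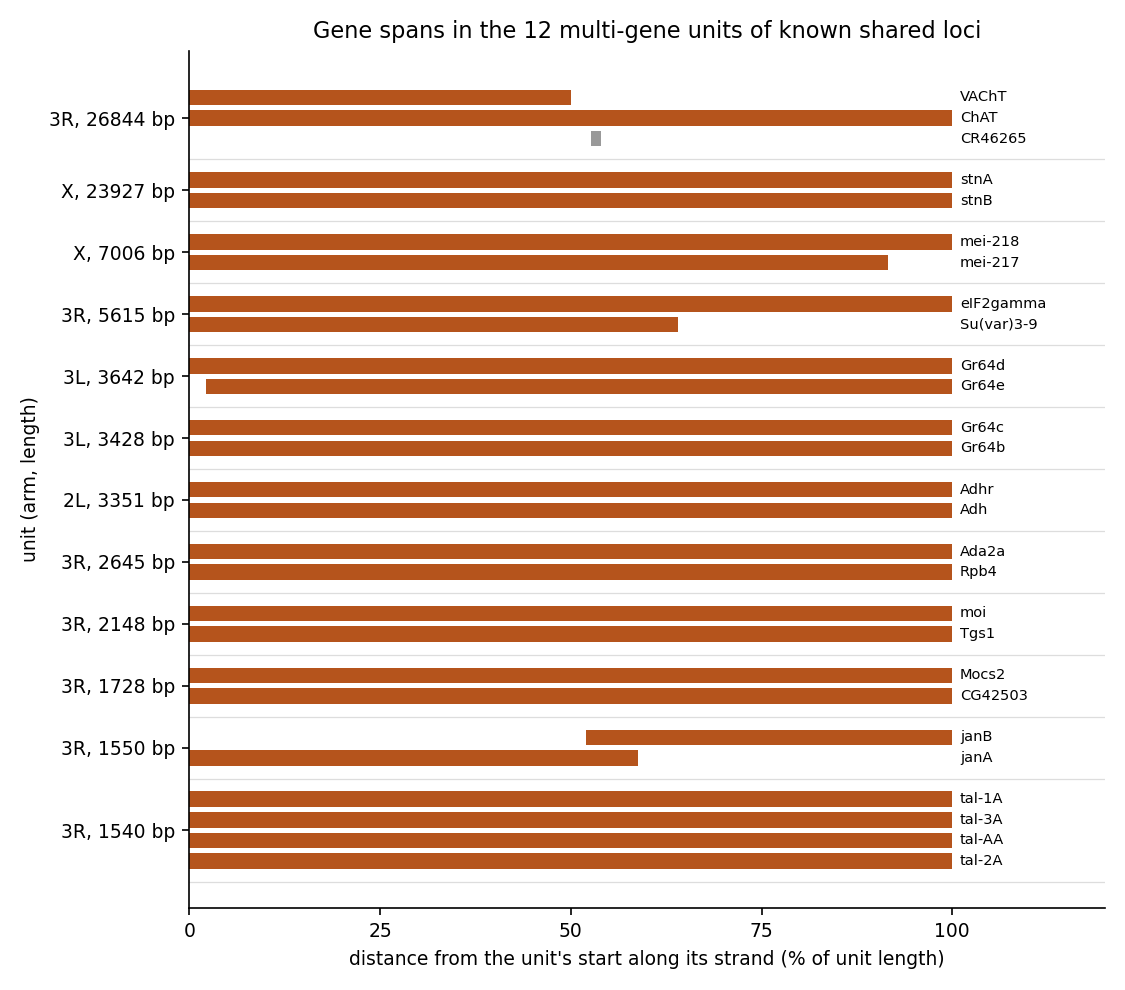
Gene spans in the 12 multi-gene units that hold genes of the listed loci. The horizontal axis is the distance from the start of the unit along its strand in percent of unit length, each bar is the span of 1 gene (orange for protein-coding genes, grey for a non-coding gene), and the vertical axis gives the arm and length of each unit. In 6 units with 2 genes and in the tal unit all bars are full length. The ChAT bar is full length below a VAChT bar of 13416 of 26844 bp, and the janA and janB bars meet over 107 bp.

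The 610 units were spread over the 5 large arms in similar proportions. The share of units under the length limit was 3.86% on 2L (118 units), 4.07% on 2R (127), 4.31% on 3L (129), 4.19% on 3R (153) and 3.62% on X (82), and the exact intervals of all 5 overlapped. Chromosome 4 held a single one, Thd1 with CR43958, among 102 units (0.98%, interval 0.0248 to 5.34%). Thd1, a thymine-DNA glycosylase gene, and the non-coding RNA gene began at the same base of that 19523 bp unit (chr4:538332-557854, minus strand). Of the 610, 328 lay on the plus strand.

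Most of them were pairs. Exactly 2 genes were named in 551 units (90.3%, interval 87.7 to 92.6%), 3 genes in 50, 4 genes in 7, 7 genes in 1 and 15 genes in 1. Over the 5 large arms the share with 2 genes ran from 85.8% on 2R to 97.6% on X. Since no test was made between arms, these figures are given as a description.

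The kinds of gene name describe how the set is annotated and do not measure how much of it is known by function. Fly genes without a given name carry an annotation number that begins with CG, mostly for protein-coding genes, or with CR, for non-coding RNAs and pseudogenes. CG numbers made up 619 of the 1302 genes (47.5%), given names 517 (39.7%), CR numbers 117 (8.99%) and names for classes of RNA 49. The given names include 20 copies of the histone H2A gene. They also include 23 entries named pre-mod(mdg4), which RefSeq classes as gene segments. No gene with a given name was present in 224 units, exactly 1 in 281, and 2 or more in 105. The most frequent combination was a CG gene with a named gene (191 units, 31.3%), followed by CG genes alone (176, 28.9%) and named genes alone (95, 15.6%).

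A CR gene was present in 106 units (17.4%, interval 14.5 to 20.6%), from 10.2% on 2R to 24.0% on 3L over the 5 large arms, and in the only such unit of chromosome 4. Units with a CR gene beside a named gene (60) had a median length of 12470.5 bp, the longest median among the combinations with 10 or more units. CR with CG (30) had a median of 4995 bp. A union of spans cannot be shorter than its longest gene, and the length of the partner gene was not matched here.

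By RefSeq gene class, 453 of the 610 units held only protein-coding genes, 414 of these as pairs. A long non-coding RNA gene with 1 protein-coding gene followed with 58 units, a gene of the remaining class ncRNA with 1 protein-coding gene with 31, and an antisense RNA gene with 1 protein-coding gene with 17. All but 3 of the 1302 genes had a row in the RefSeq table. The exceptions, Glycogenin, CG11566 and xmas-2, left their 3 units without gene spans.

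Small RNA genes were not entirely absent, because the selection recognised them by 4 name starts only. A gene of RefSeq class miRNA, snoRNA or ncRNA was present in 47 units. They included 11 scaRNAs, guide RNAs that direct modification of spliceosomal RNAs, which shared units with genes such as bur, tra2 and hfp, and 30 genes named snmRNA. The 2 microRNA genes were bantam, a regulator of growth written ban, and bft. The span of ban, 81 bp, lay 13773 bp into a unit of 15466 bp with the long non-coding RNA gene CR43334 (chr3L:628435-643900, plus strand). That of bft, 94 bp, lay 17591 bp into a unit of 18895 bp with CR43314 (chr2L:11952200-11971094, minus strand). One unit on X held a pre-rRNA gene with rRNA and rRNA pseudogene pieces (5725 bp). These genes were singled out after their classes were seen.

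A block of near-identical units also came through the selection. Copies of the histone H2A gene from the tandem histone repeat, each with 1 gene named snmRNA inside it, formed 20 units of 476 to 493 bp. All 20 lay on the plus strand of 2L between 21423737 and 21538720 and had 2 transcripts each. Short reads often match several of such copies equally well. Because they count as 20 of the 118 units on 2L, several values that follow are also given without them. These are length and overlap on 2L, the means and shares of the shortest length class, and the positions of other genes within protein-coding genes. The arrangement shares of all pairs include them.

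The way 2 genes share a unit was read from the gene spans of 548 pairs. In 126 (23.0%, interval 19.5 to 26.7%) both genes had the same start and end. In 60 (10.9%) only the start was shared, and in 22 (4.01%) only the end. In 189 (34.5%, interval 30.5 to 38.6%) one gene lay inside the other with both edges apart, and in 151 (27.6%, interval 23.9 to 31.5%) the genes were staggered, each reaching beyond the other at one edge. The 20 histone units were among the 189, and no pair lay apart. Units and gene table agreed exactly in outer start and end for 604 of 607 units with all genes matched (99.5%), so the table is not an independent source of the spans.

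**Figure D2:**
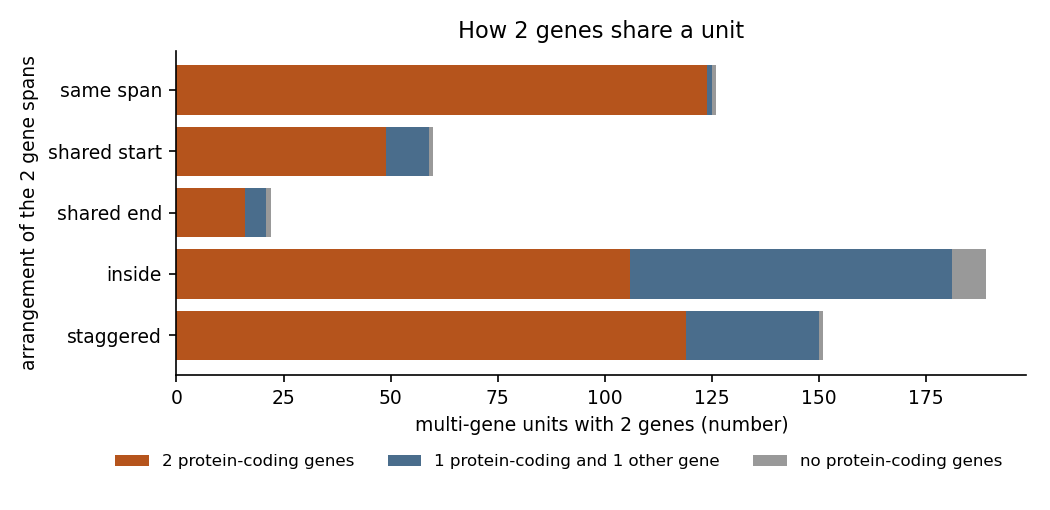
Number of multi-gene units with 2 genes (horizontal axis) in each arrangement of the gene spans (vertical axis), split by gene class. The same-span bar is almost all protein-coding pairs (124 of 126), and the inside bar is the one with the most pairs that hold 1 protein-coding and 1 other gene (75 of 189). The 20 histone units are among these 75.

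Among the 414 protein-coding pairs, 124 (30.0%, interval 25.6 to 34.6%) had the same span, 119 were staggered, 106 were nested one inside the other, 49 shared only a start and 16 only an end. Thus 173 pairs (41.8%) had one annotated start for both genes, while in 182 (44.0%) the gene starts lay over 1000 bp apart. The unit start was the start of only one of the genes in the latter.

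Same-span pairs were short, and nested pairs were long. The median unit length was 2606.5 bp for the same span (interval 1976 to 3110, range 609 to 23927 bp), 4419 bp for staggered, 6136 bp for a shared start and 12849 bp for nested pairs (interval 11178 to 14581). stnA and stnB formed the longest same-span unit. On X, 14 of 62 protein-coding pairs had the same span (22.6%, interval 12.9 to 35.0%), and on the large autosomal arms the share ran from 25.6% on 3L to 35.1% on 2R, and the intervals of all 5 arms overlapped.

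In 56 of the 124 same-span pairs both genes had a CG number, in 42 one gene was named, and in 26 both were. Several of these 26, singled out after their values were seen, join genes of one organelle or family. The genes tctn and B9d2, both of the ciliary transition zone, shared 2780 bp on 2L. DNApol-gamma35, the accessory subunit of the mitochondrial DNA polymerase, and GatC, a subunit of the mitochondrial glutamyl-tRNA amidotransferase, shared 1624 bp on 2L. mtTFB1, a mitochondrial transcription factor gene, and Ccdc56, an assembly factor of cytochrome c oxidase, shared 1592 bp on 3L. The chemoreceptor genes Gr10a and Or10a shared 3956 bp on X. Others joined genes with no such evident relation, such as PGRP-LD, of the peptidoglycan recognition family, with Pmi (4635 bp on 3L). No enrichment of functions was tested.

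Nested protein-coding pairs had an inner gene with a median span of 1272.5 bp (311 to 7906 bp), and in 44 of the 106 it covered less than 10% of the unit. The muscle LIM protein gene Mlp84B (4883 bp) lay inside Alh, a chromatin-associated zinc finger gene, 6453 bp from the start of a unit of 29590 bp (chr3R:7094596-7124185, minus strand). The gene CG8509 (1393 bp) lay 5185 bp into sd, which encodes the TEAD transcription factor of the Hippo pathway, in a unit of 23313 bp (chrX:15804370-15827682, plus strand). CG43341 (1040 bp) lay 9599 bp into CG43340 in a unit of 28546 bp (chr2R:7623242-7651787, plus strand). In all 3 the inner gene started more than 5000 bp from the start of the unit.

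The overlap of staggered protein-coding pairs was mostly small. Its median was 99 bp, and 61 of the 119 overlapped by less than 100 bp, while 21 overlapped by 500 bp or more. The smallest overlaps among all protein-coding pairs were 3 bp for Cdc37, an Hsp90 co-chaperone gene, with CG12020 (3219 bp, chr3L:1795392-1798610, plus strand), 3 bp for CG12783 with CG10340 (2973 bp, chr3R:16611419-16614391, minus strand), and 4 bp for CG12917 with the odorant receptor gene Or46a (4419 bp, chr2R:10137656-10142074, plus strand). At the other end stood CG46307 with the sodium/proton exchanger gene Nhe2, which shared 28342 bp and a start (chr2L:21104568-21134255, plus strand), CG46311 with Tango13, which shared 26748 bp and a start (chrX:13563823-13593224, plus strand), and stnA with stnB.

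The annotation numbers of these pairs were also compared. CG numbers were first given in order along the chromosomes, and genes added later received high numbers. Numbers next to each other were found in 42 of 124 same-span pairs (33.9%) and 5 of 16 pairs with a shared end (31.25%). They were also found in 25 of 119 staggered pairs (21.0%), 8 of 49 with a shared start (16.3%) and 17 of 106 nested pairs (16.0%). The share was 18.6% among 3025 pairs of neighbouring single-gene protein-coding units on 1 strand at most 1000 bp apart. A number of 42000 or above, a limit chosen after the numbers were seen, was carried by a gene of 60 same-span pairs (48.4%), 6 of 16 pairs with a shared end (37.5%), 15 of 49 with a shared start (30.6%), 26 nested pairs (24.5%) and 15 staggered pairs (12.6%). Among those neighbours the share was 9.16%. Genes with high numbers can also have numbers next to each other, as CG43778 and CG43779 do. The pairs with adjacent and with high numbers were not separated, so adjacent numbers do not tell when a gene was annotated.

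Where a protein-coding gene was paired with another class of gene (122 pairs), the other gene lay within the protein-coding one in 88. It reached over the start in 16, over the end in 15, around the whole gene in 2, and had the same span in 1. Without the 20 histone units, 68 of 102 lay within. All 30 genes named snmRNA lay within (median span 36 bp, and 66 bp for the 10 outside the histone units, range 31 to 171 bp), as did all 9 scaRNAs of such pairs (median 139 bp). Of 57 CR genes of class lncRNA (median span 743 bp), 37 lay within, 11 over the start and 6 over the end. Of 17 CR genes of class antisense RNA (median 1344 bp), 7 lay within, 3 over the start and 7 over the end. The table carries no strand per gene, so the strand of a unit was taken for all of its genes, and an antisense gene here is one that RefSeq classes so in relation to some gene.

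Where the RNA gene surrounded the protein-coding gene, CR45082 spanned all 23492 bp of a unit on X around Cyp6t1, a cytochrome P450 gene, and CR44937 all 2610 bp of a unit on 3R around CG44227. The pair of the same span was CR44097 with CG6000 (702 bp on 3R). An RNA gene over the start was seen, for example, at Ilp8, the relaxin-like peptide gene, where CR45756 (554 bp) began the 2797 bp unit on 3L.

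Units with 3 or more genes took 4 forms. In 29 of the 59 with all genes matched, a single gene spanned the unit and the others lay within it. In 20 no gene spanned the whole unit, in 7 all genes had the same span, and in 3 at least 2 but not all spanned the unit. Among those 20 a gene could still cover most of its unit, as Pxn did with 97.8%. The form in which a single large gene holds smaller ones was thus the most frequent.

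The mod(mdg4) unit was the largest by genes and transcripts, with 15 genes and 61 transcripts over 26556 bp (chr3R:21350846-21377401, minus strand). mod(mdg4) encodes BTB-domain chromatin proteins of insulators and is known for trans-splicing, in which a common first part is joined to alternative last parts made from separate pre-mRNAs. Here mod(mdg4) itself spanned 7301 bp, and 14 genes named pre-mod(mdg4), classed as gene segments, shared the unit, 3 of them within that span and 11 after it. A second unit with 7 pre-mod(mdg4) genes and 16 transcripts lay whole inside it on the plus strand (4641 bp, chr3R:21365609-21370249), and another with pre-mod(mdg4)-T and pre-mod(mdg4)-Z spanned 1956 bp on that strand (chr3R:21360176-21362131). The gene table began 3599 bp later than the annotation at the low end of the large unit, one of 3 mismatches of spans.

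Of the 7 units with 4 genes, 2 had all genes on the same span. One was tal, and the other held PIG-M, a mannosyltransferase gene of GPI-anchor synthesis, with CG42379, CG42380 and CG42381 (2376 bp, 7 transcripts, chr2R:21667541-21669916, minus strand). Pif1A and Pif1B both spanned their 26891 bp unit (chr3R:8774286-8801176, minus strand), with CG33191 and CG33189 within it, while CG32425 spanned 16785 bp around CG18281, CG17637 and CG5078 (chr3L:20497323-20514107, plus strand). The tetraspanin gene Tsp42Ea spanned 11584 bp and held Tsp42Eb, CG30159 and the pseudogene CR42785 (chr2R:6992676-7004259, plus strand). In the 9228 bp inaF unit (chrX:11724668-11733895, minus strand), no gene spanned the whole, and the spans of inaF-A to inaF-D covered from 48.0% to 87.8% of it. That unit lay whole inside a unit of the other strand.

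Related names were shared by genes of 30 units, meaning that named genes had the same stem before a final number or letter. Of these, 10 were same-span pairs, 5 were staggered, 3 had a common start and 1 a common end, and 11 held more than 2 genes or an unmatched gene. Besides those already described, the larger ones were CG32052 around the insulin-like peptide genes Ilp1 and Ilp2 (21668 bp, 3L), olf186-F, the gene of the Orai calcium channel, around olf186-M and CG30323 (17141 bp, 2R), and Eglp2 around Eglp3 and Eglp4, all of the aquaporin family (13033 bp, 2R). In Teh2 with Teh3 and VhaM9.7-c (9044 bp, 3L), Teh2, of a family of sodium channel auxiliary subunits, spanned the unit. The unit with Pxn, the peroxidasin gene, was the longest of those with 3 genes and held the long non-coding RNA genes CR45981 and CR45660 (29239 bp, chr3L:2601455-2630693, minus strand).

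Multi-gene units were longer than single-gene units. Their length ran from 266 to 29828 bp, with quartiles of 2697.75 and 12460 bp and a median of 5097 bp (order-statistic interval 4596 to 5738). The median of the single-gene units was 1699 bp (1672 to 1734), a ratio of 3, and by arm the ratio ran from 2.45 on 2L to 3.9 on 3L. Without the histone units the 2L ratio was 3.18, and the lowest was then 2.58 on 2R. Length entered the selection only through its upper limit, but a union of genes is at least as long as each of them, so some excess is built in and no test was made. For units with only protein-coding genes the medians were 4870 and 2001 bp.

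The shortest units were CR45671 with CR45443 (266 bp, chr3L:11593447-11593712) and CR45672 with CR45442 (344 bp, chr3L:11592447-11592790), pairs of long non-coding RNA genes on the minus strand whose shared stretch was 263 and 333 bp. The next was the histone unit of His2A:CG33808 (476 bp, chr2L:21433862-21434337, plus strand). The longest were Alh with Mlp84B at 29590 bp, CG46307 with Nhe2 at 29688 bp and CG32085 with CR45883 at 29828 bp (chr3L:11650517-11680344, minus strand). The first unit past the limit, CG43367 with the cuticle protein gene Cpr64Ad at 30011 bp (chr3L:4193993-4224003, plus strand), was a pair with 1 CG gene. There were 192 units of 10000 bp or more (31.5%) and 38 under 1000 bp, 20 of which were the histone units.

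By arm the median length was 3744.5 bp on 2L (2913 to 5073), 4320 bp on 2R (3621 to 5724), 6123 bp on 3L (4635 to 8045), 5078 bp on 3R (4205 to 6811) and 7111.5 bp on X (5273 to 10118). Without the 20 histone units the 2L median was 4854 bp (3626 to 7176). X had the highest median, but its interval overlapped those of 2R, 3L and 3R, and that of 2L once the histone units were left out. Units of 10000 bp or more were 32 of the 82 on X (39.0%) and 159 of the 527 on the large autosomal arms (30.2%), and the single-gene units of X also had the highest median of the large arms (2040 bp).

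**Figure D3:**
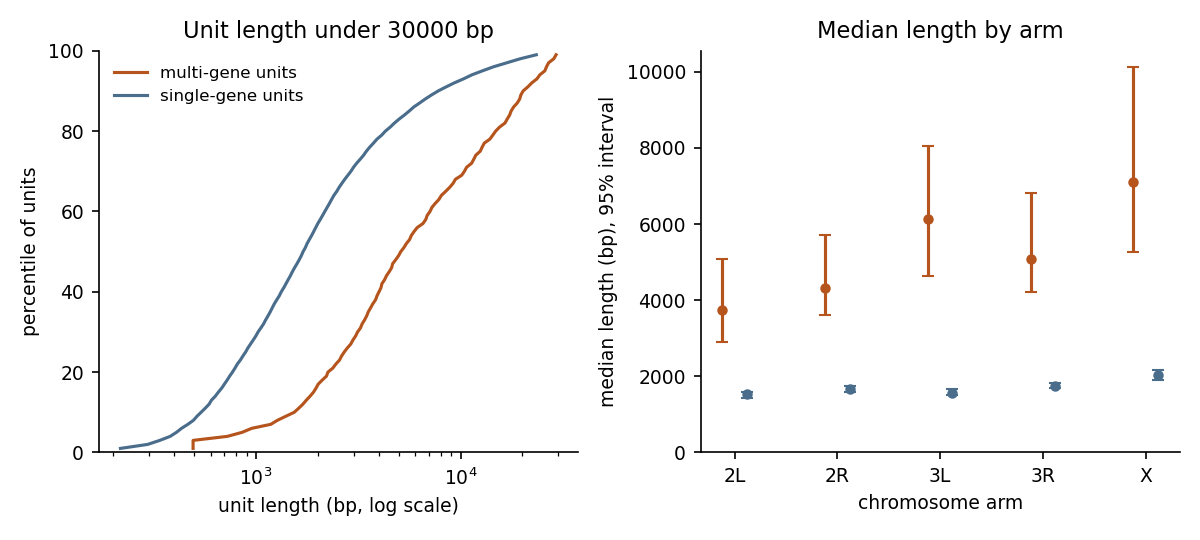
Left, cumulative distribution of unit length (bp, log scale) in percentiles for the 610 multi-gene units and the 13997 single-gene units. Right, median unit length (bp) by arm with 95% order-statistic intervals; the multi-gene medians lie between 3744.5 bp on 2L and 7111.5 bp on X, all above the single-gene medians, and chromosome 4 with 1 multi-gene unit is not drawn.

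The 610 units listed 2861 transcripts, from 2 to 61 each with a median of 4. Divided by the number of genes, the median was 2 transcripts per gene (mean 2.19), against a median of 1 (mean 1.83) in single-gene units. A single transcript for each gene was listed in 133 units (21.8%), 20 of them histone units, against 58.7% of single-gene units. These shares are not alike, since all genes of a multi-gene unit must have 1 transcript to be counted. There were 31 units with 10 or more transcripts. After mod(mdg4), the most were found for sd with CG8509 (22), for Cp110, a centriole protein gene, with l(1)G0196 (18), which overlapped by 279 bp in a unit of 26048 bp (chrX:22482082-22508129, plus strand), for Alh with Mlp84B (16) and for CG43340 with CG43341 (16). Of these 5, 2 lay on X.

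The direction of that difference depended on length. Under 2000 bp the mean was 1.52 transcripts per gene in multi-gene units (1.65 without the histone units) and 1.29 in single-gene units. From 2000 to under 5000 bp it was 1.86 against 1.95, from 5000 to under 10000 bp 2.23 against 3.01, and from 10000 bp upward 2.85 against 4.06. With only protein-coding genes counted, the means were 1.71 against 1.36, 1.91 against 1.97, 2.30 against 3.04 and 3.10 against 4.09. These means cover every unit of a class. Within the 3 longer classes a gene in a multi-gene unit had on average fewer listed transcripts than a gene alone in a unit of that length. The gene's own span is often shorter than its multi-gene unit, however. The difference was small from 2000 to under 5000 bp, and no interval was computed for these means. Transcripts were listed gene by gene in the textbook loci. There stnA and stnB had 4 RefSeq transcripts each in a unit of 8, and each tal gene had 1 in a unit of 4. An RNA that covers several genes may thus be counted under each of them. Whether such entries are the same RNA was not tested.

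Units on the other strand overlapped 299 of the 610 by at least 1 bp (49.0%, interval 45.0 to 53.1%) and 38.1% of the single-gene units (37.3 to 38.9%). By length class the shares were 34.0% against 36.4%, 47.7% against 40.6%, 59 of 118 units against 39.3%, and 57.8% against 40.5%, from the shortest class to the longest. Without the 20 histone units, none of which was overlapped, the share of the shortest class was 42.2% (interval 31.4 to 53.5%). By arm it was 52.8% on 2R, 54.3% on 3L, 48.4% on 3R and 56.1% on X, each above its single-gene share of 37.0 to 40.2%. On 2L it was 34.7% against 36.8%, and 41.8% (interval 31.9 to 52.2%) without the histone units. In contrast, 29 units (4.75%, interval 3.21 to 6.76%) lay whole inside a unit of the other strand, against 11.5% of single-gene units, which are shorter.

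**Figure D4:**
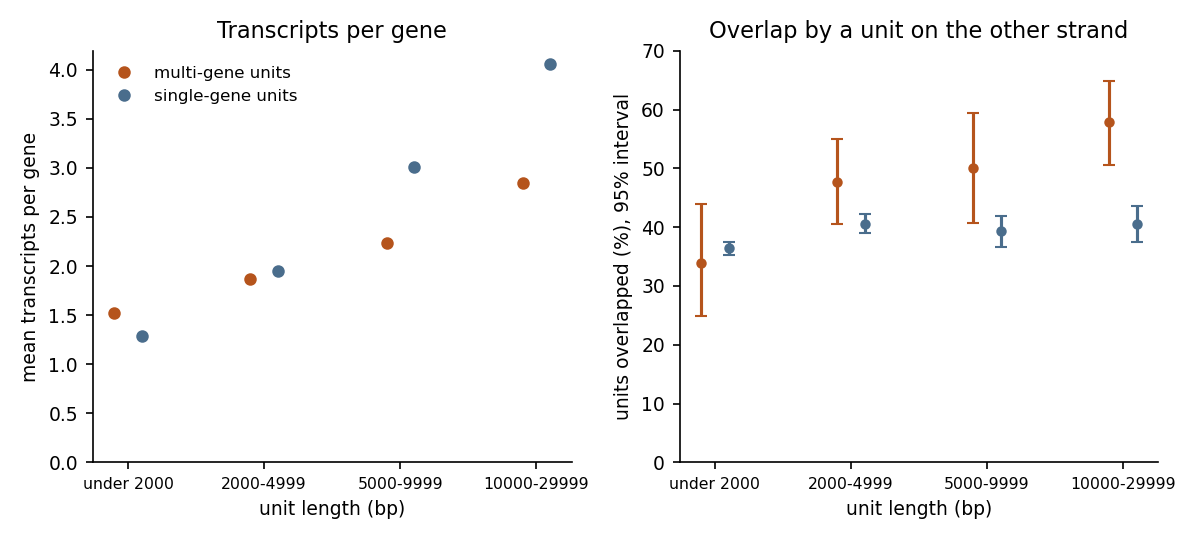
Left, mean listed transcripts per gene, and right, percent of units overlapped by a unit on the other strand with 95% exact binomial intervals, by class of unit length (bp), for multi-gene (orange) and single-gene (blue) units. The multi-gene mean is higher in the class under 2000 bp (1.52 against 1.29) and lower in the other 3 classes, and the overlap is 57.8% against 40.5% in the longest class.

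A divergent neighbour was a unit on the other strand, read in the opposite direction, that started at most 1000 bp upstream of the unit's own start. Units that overlapped at their starts were not counted as divergent. A divergent neighbour was found for 251 of the 610 (41.1%, interval 37.2 to 45.2%) and 33.6% of single-gene units (32.9 to 34.4%). All 20 histone units had one, and without them the share was 39.2% (231 of 590, interval 35.2 to 43.2%). By length class the shares were 52.4% against 30.1% under 2000 bp (41.0% without the histone units), 42.6% against 42.1% from 2000 to under 5000 bp, 42.4% against 36.7% from 5000 to under 10000 bp, and 32.8% against 27.1% from 10000 bp upward. On X they were 35.4% (interval 25.1 to 46.7%) and 32.9%.

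In 22 of the 251 the nearest divergent unit was itself one of the 610, which gave 11 facing pairs. The closest, 12 bp apart on 3R, were CG6015 with CG45099 and the unit of pit, Fadd and a scaRNA. Ada2a with Rpb4 and moi with Tgs1 came next at 43 bp. On 2R the same-span units of Tim10, a mitochondrial import protein gene, with CG42497 (925 bp) and of Ppcdc, an enzyme gene of coenzyme A synthesis, with CG42496 (1470 bp) lay 156 bp apart. On X the unit of COX6B, a cytochrome c oxidase subunit gene, with CG18809 (3799 bp) lay 96 bp from that of CG33932 with the RNase P protein gene Rpp20 (1468 bp). The unit of janA and janB faced the same-span unit of Sry-alpha and Sry-beta on 3R at 186 bp (3353 bp). The facing pairs were singled out after their distances were seen. On the same strand, 29 pairs of neighbouring units were both among the 610.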

How the data were processed

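Of the 12 mNET-seq libraries, values for 0 were analysed here, so there is no depth, replicate error or test between RNAi groups. The authors' deposited annotation gives each transcription unit's start, end and length in bp, strand, gene names and transcript IDs (unit: other). Per the file headers it was written with rtracklayer 1.48.0. The rule that joined genes into units: not given in the sources used here. The submitters' processing notes name cutadapt 2.8, STAR 2.7.4a, SAMtools 1.20, DESeq2 and the dm6 build, with no role.

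Genes of the 610 units were matched to the RefSeq table of Release 6 by symbol (1065), locus tag (206) or synonym (28), with 3 unmatched. Single-gene units with a small RNA name were left out of the comparison group, which the planned design did not state. Shares have 95% exact binomial intervals and medians order-statistic intervals. An annotation is no random sample, so the intervals describe variation among units only. Neighbouring units are not independent, and no test was made over units. The code was checked on simulated data (200 units against a plain pairwise loop and 7 arrangements, 0 mismatches). Python 3.11.15, NumPy 2.4.6, SciPy 1.17.1 and Matplotlib 3.10.9 were used.

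Named genes were those of 12 textbook loci, the 10 units with the most genes, the 3 longest, the 3 shortest and the first past the limit, the 5 with the most transcripts, 10 with a shared name stem, and the 3 largest and 3 smallest overlaps. The protein identity of pairs, also planned, was not computed, since no proteins were used here. The units, lists and rules were chosen with earlier results of these data known. Alternatives covered the length limit, the names left out, chromosome 4, the minimum overlap, the tolerance of shared edges, the matching and the transcript summary.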

Additional observations from a re-analysis of the deposited data

How the results depend on the processing

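No paired analysis was possible because the 12 libraries gave no value here, which also meant that no replicate could be omitted. Of 53 alternative values, 39 stayed within the interval of the reported value (or within 1.5 times a count) and 14 moved. With a length limit of 20000 bp the share of units fell to 3.68% and the median length to 4427.5 bp. With no limit the share was 5.26%, the share with 2 genes 82.7%, the share with a CR gene 24.7%, the median length 9835 bp and the overlap with the other strand 55.5%. Both follow from the units that the limit admits. With small RNA names kept, the share was 5.57%, the share with 2 genes 83.9% and the median 1.83 transcripts per gene. Overlaps of at least 100 bp were found for 38.5% of the multi-gene units. The single-gene share was not computed at that threshold, so that comparison holds for overlaps of at least 1 bp only. The median of all transcripts of a unit was 4. With genes matched by current symbol only, 364 of 548 pairs remained, of which 28.8% had the same span and 26.6% were nested, since pairs with a gene matched by locus tag or synonym drop out. The number of units was 546 and 834 with the other limits, 845 with small RNA names kept, 598 without further RNA names and 609 without chromosome 4. Leaving out the histone units, chosen after seeing the data, moved none of the 5 values recomputed over all arms. Leaving out the 47 units with a small RNA class, also chosen then, was run for the number of units only (563). Depth limits nothing here, and the annotated edges set the precision.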
